A study of Mus musculus with 6 samples.

Results

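The transcripts of the enzymes that carry tryptophan through the kynurenine pathway were compared between the epididymides of wild-type (WT) and occludin knockout (Ocln-KO) mice. The genes Ido1, Ido2, Tdo2, Afmid, Kmo, Kynu, Haao and Qprt encode the enzymes, and Ahr encodes a receptor that binds kynurenine. They were taken by symbol from the count table, 9 genes among 57127 listed and 32046 with a count. Adult mice labelled as C57BL/6 were used, either WT or Ocln-/-, with 3 libraries of whole epididymis of each genotype and no treatment. The knockout is constitutive, so the testis and every other organ of the mice lacked occludin as well. The study's methods speak of RNA taken separately from 3 pairs of WT and Ocln-KO mice, and also of pooled RNA. Which libraries form a pair is not stated, and the genotypes were compared here as unpaired groups. Therefore n counts libraries, and a p-value sets the genotype difference against the variation between these libraries, which is estimated with information from all genes tested. The extraction text of the labels names prefrontal cortex, while their tissue field gives the epididymis. Caput transcripts were abundant, with Adam7 between 5071 and 9304 CPM in the 6 libraries (the count of a gene scaled to a library of 1000000 counts), whereas the caput markers Lcn9, Cst11 and Adam28 were at or below 0.157 CPM in each library.

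Indoleamine and tryptophan dioxygenases open the indole ring of tryptophan, and a formamidase turns the product into kynurenine. Kynurenine can then be hydroxylated, cleaved and oxidised to quinolinic acid, from which the cell makes NAD, or it can act as a ligand of the aryl hydrocarbon receptor. IDO1 is induced by interferon-gamma in many cells and depletes tryptophan, which restrains T cells, and in the mouse epididymis it is known as an abundant protein of the caput epithelium.

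The library totals ran from 30646424 to 38870780 counts, so 3 counts were worth between 0.0802 and 0.0942 CPM. That limit covers counting error only, whereas the intervals of fold changes below include the spread between libraries. Ocln fell from between 78.8 and 91.8 CPM in WT to between 14.9 and 15.3 CPM in Ocln-KO (log2 fold change -2.50, adjusted p = 0.000108 in edgeR's quasi-likelihood test), as the genotype labels state. The Ocln-KO libraries differed from each other more than the WT libraries did. A chi-square of the counts per degree of freedom, which is near 1 under sampling noise, was between 56.2 and 124 for pairs of Ocln-KO libraries and between 15.1 and 34.7 for pairs of WT libraries. Ocln-KO replicate 3 stood apart in the 5 spermatid and sperm transcripts, whose summed level was 56.8 CPM there and between 178 and 239 CPM in the other libraries. Ocln-KO replicate 1 had the lowest sum of the caput transcripts without Gpx5, 9340 CPM against 12187 to 19252 CPM elsewhere. Of 48 tested cell type markers edgeR called 6, against 8.95% of all genes tested. The caput gene Gpx5 and the basal cell gene Krt14 were called as higher and 4 clear cell genes as lower. The other 6 tested caput genes were not called, with 3 positive and 3 negative log2 fold changes. Of the 5 basal cell genes 4 had a positive and 1 a negative log2 fold change, and Krt14 was the only 1 called. The 4 adipocyte markers summed to between 2.53 and 4.45 CPM in WT and between 0.0592 and 1.99 CPM in Ocln-KO. Values without Ocln-KO replicate 1 or 3 are given where they move a result.

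None of the 9 genes was called different between the genotypes. All 9 passed the filter on low counts. With edgeR's quasi-likelihood test and Benjamini-Hochberg adjustment over the 19691 genes tested, 0 of the 9 had an adjusted p under 0.05, and 2 of them, Kmo and Kynu, had an unadjusted p under 0.05. DESeq2 called 0 with 1 under an unadjusted p of 0.05, and limma-voom likewise called 0 with 1. Of all genes tested, 8.95% were called, 3.91% as higher and 5.04% as lower in Ocln-KO, and 29.1% had an unadjusted p under 0.05. Scaling by total counts alone turned the 770 higher and 992 lower calls over all genes into 1175 higher and 674 lower, and still called 0 of the 9. The median log2 fold change of the 9 was 0.27, against 0.01 over all genes. The sign was positive in 8 and negative in 1, and 50.9% of all genes tested were positive. Without regard to sign, the median size of the log2 fold change was 0.27 for the 9 and 0.30 over all genes. A p above the threshold does not show that a transcript was equal in the genotypes, and the intervals below give the differences that these libraries allow. In bulk tissue, fewer cells of a type and less RNA per cell cannot be told apart.

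**Figure D1:**
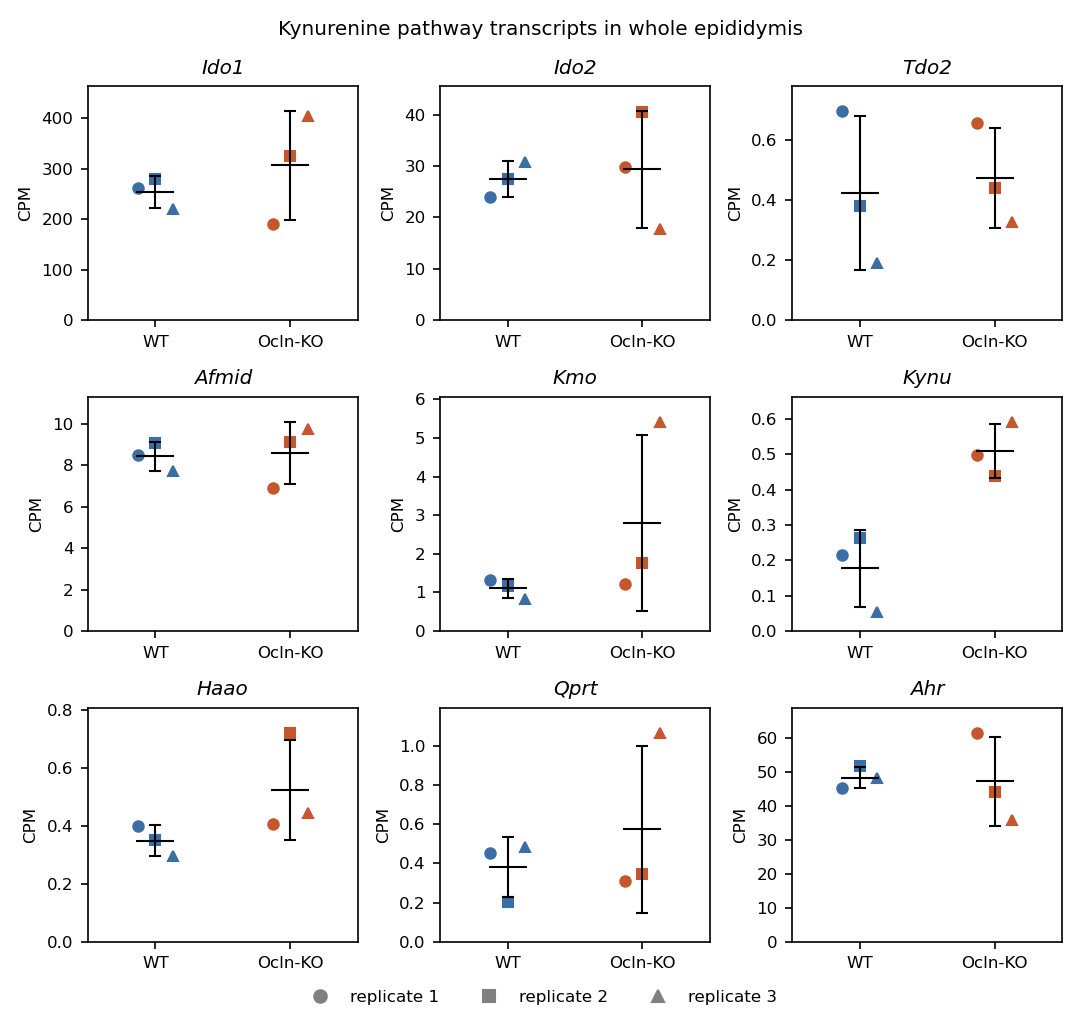
CPM of each of the 9 transcripts (vertical axis, linear from 0, its own range in each panel) in the WT and Ocln-KO libraries, with points for libraries, the long horizontal line for the mean and the bar for 1 SD (n = 3). Ido1 ran from 219 to 280 CPM in WT and from 191 to 404 CPM in Ocln-KO, and Kynu was higher in each Ocln-KO library than in any WT library.

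Ido1 was by far the most abundant of these transcripts per kilobase of exon, the scale on which levels of different genes are compared further on. It lies on the minus strand of chromosome 8 from 24584136 to 24597009 (GRCm38), with its exons in 11 blocks. The WT libraries held 262, 280 and 219 CPM, and the Ocln-KO libraries held 191, 324 and 404 CPM. The Ocln-KO libraries thus included both the lowest and the highest value of the 6, and the genotypes overlapped. Ido1 averaged 254 ± 31.2 CPM in WT, against 306 ± 107 CPM in Ocln-KO (SD, n = 3). Its log2 fold change of 0.27 (standard error, SE, 0.25, adjusted p = 0.512 in edgeR's quasi-likelihood test) had a 95% confidence interval from 0.813-fold to 1.79-fold of WT. Single Ocln-KO libraries moved this value. Without Ocln-KO replicate 1 the log2 fold change was 0.52, with an unadjusted p of 0.00657 and an adjusted p of 0.0622 in edgeR's test, and without Ocln-KO replicate 3 it was 0.02 with an adjusted p of 0.961.

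Ido2, the paralog of Ido1 with weaker activity toward tryptophan, lies next to it on the same strand of chromosome 8, from 24531892 to 24576333. Only 7802 bases separate these neighbours. How reads that align to several places were counted is not given in the sources used here. Ido2 had 24.0, 27.5 and 30.8 CPM in WT, against 29.8, 40.4 and 17.8 CPM in Ocln-KO. The highest and the lowest of the 6 values were again both from Ocln-KO libraries, but the library with the most Ido1 was the one with the least Ido2. This gave a log2 fold change of 0.10 (SE 0.27, adjusted p = 0.846 in edgeR's quasi-likelihood test), with an interval from 0.699-fold to 1.63-fold. It was -0.21 without Ocln-KO replicate 2.

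Tdo2, the tryptophan dioxygenase known for its high level in liver, was close to the limit of these libraries. It lies on chromosome 3 from 81957090 to 81976202. Its raw counts were 26, 13 and 7 in WT and 21, 14 and 11 in Ocln-KO, which is 0.695, 0.381 and 0.188 CPM against 0.655, 0.439 and 0.326 CPM. The Ocln-KO values all lay within the WT range. The log2 fold change of 0.16 had an interval from -1.21 to 1.53 (adjusted p = 0.886 in edgeR's quasi-likelihood test), so that both a rise and a fall by 2-fold lay inside the interval.

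Afmid encodes the formamidase that yields kynurenine, and its genotype means were close, at 8.42 and 8.60 CPM. It lies on chromosome 11 from 117825924 to 117839908, and 44.2% of its exon bases overlap the annotated gene Gm20708 on the same strand. That symbol is not listed in the count table, and which gene models were used for counting is not given in the sources used here, so how reads of the shared bases were counted is uncertain. Levels were 8.47, 9.08 and 7.70 CPM in WT, against 6.92, 9.10 and 9.77 CPM in Ocln-KO. The ranges overlapped, and the log2 fold change was 0.03 (SE 0.18, interval -0.39 to 0.45, adjusted p = 0.932 in edgeR's quasi-likelihood test). Among the 5 of these genes with a mean of at least 1 CPM, Afmid had the smallest ratio of highest to lowest Ocln-KO library, 1.41, against 1.30 for the median gene.

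Kmo and Kynu, the next enzymes of the pathway, had the 2 largest fold changes of the 9 genes. Kmo, the kynurenine hydroxylase of the outer mitochondrial membrane, is known from myeloid cells such as macrophages and microglia. It lies on chromosome 1 from 175620381 to 175662116. Kmo had 1.31, 1.17 and 0.835 CPM in WT, against 1.22, 1.76 and 5.42 CPM in Ocln-KO. Ocln-KO replicate 3 was far above the other 5 libraries, with 183 counts against 31 to 56, and Ocln-KO replicate 1 lay inside the WT range. On the log2 scale the difference was 1.34 (SE 0.57, interval 0.02 to 2.65), with an unadjusted p of 0.0469 and an adjusted p of 0.165 in edgeR's quasi-likelihood test. Without Ocln-KO replicate 3 it was 0.43 with an adjusted p of 0.534, and without Ocln-KO replicate 1 it was 1.70 with an adjusted p of 0.0782, the lowest of the 14 alternatives.

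Kynu, the kynureninase that cleaves hydroxykynurenine, lies on chromosome 2 from 43555329 to 43682715. It had 8, 9 and 2 counts in WT, against 16, 14 and 20 counts in Ocln-KO, and the count of 2 is below the limit of 3 counts used here. These are 0.214, 0.264 and 0.0539 CPM against 0.499, 0.439 and 0.592 CPM. Every Ocln-KO library lay above every WT library, although no library held more than 20 reads. Kynu had a log2 fold change of 1.52 (SE 0.62, interval 0.09 to 2.94), with an unadjusted p of 0.0398 and an adjusted p of 0.150 in edgeR's quasi-likelihood test. The adjusted p lay between 0.132 and 0.311 in the 13 alternatives that tested the gene, and the fold change was positive in each of them.

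Haao and Qprt, the enzymes that make quinolinic acid's precursor and turn quinolinic acid into a precursor of NAD, were also scarce. Haao lies on chromosome 17 from 83831156 to 83847963. Its counts were 15, 12 and 11 in WT and 13, 23 and 15 in Ocln-KO, or 0.401, 0.352 and 0.296 CPM against 0.405, 0.722 and 0.444 CPM. The genotypes did not overlap on the CPM scale, but the nearest libraries, at 0.401 and 0.405 CPM, were almost level. Haao differed by 0.58 on the log2 scale (interval -0.51 to 1.66, adjusted p = 0.459 in edgeR's quasi-likelihood test). Kynu and Haao were the 2 of 9 genes whose libraries did not overlap, and 36.3% of all genes tested had no overlap. Qprt, which joins quinolinic acid to a phosphoribosyl group, lies on chromosome 7 from 127107114 to 127122226. It had 0.454, 0.205 and 0.485 CPM in WT, against 0.312, 0.345 and 1.07 CPM in Ocln-KO. Ocln-KO replicate 3 was the highest library, as for Kmo, and here both other Ocln-KO libraries lay within the WT range. The log2 fold change of 0.59 (interval -0.89 to 2.06, adjusted p = 0.590 in edgeR's quasi-likelihood test) turned to -0.22 without that library.

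Ahr, the receptor for which kynurenine is a ligand, lies on chromosome 12 from 35497974 to 35535038. It had 45.3, 51.7 and 48.3 CPM in WT, against 61.7, 44.3 and 36.0 CPM in Ocln-KO. Here Ocln-KO replicate 1 was the highest of all and replicate 3 the lowest, which is the opposite order to Ido1 and Kmo. The means were 48.4 ± 3.21 CPM and 47.3 ± 13.1 CPM (SD, n = 3), and the difference was -0.03 on the log2 scale (SE 0.18, interval -0.46 to 0.39, adjusted p = 0.925 in edgeR's quasi-likelihood test).

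The spread within the Ocln-KO group was wide for several of these genes. The highest Ocln-KO library exceeded the lowest 4.46-fold for Kmo, 2.28-fold for Ido2, 2.11-fold for Ido1 and 1.71-fold for Ahr, against 1.30-fold for the median of the 16358 genes with a mean of at least 1 CPM. Only 3.88% of those genes had a larger ratio than Kmo, 11.9% a larger one than Ido2, 13.7% than Ido1 and 22.1% than Ahr. In WT the ratios were 1.57 for Kmo, 1.29 for Ido2, 1.28 for Ido1 and 1.14 for Ahr, with 1.22 for the median gene. The genes did not share an order across the Ocln-KO libraries. Among the 5 with a mean of at least 1 CPM, Ido1, Afmid and Kmo ascended in the same order of libraries, with Ocln-KO replicate 1 lowest and replicate 3 highest, Ahr had the reverse order, and Ido2 was highest in replicate 2.

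**Figure D2:**
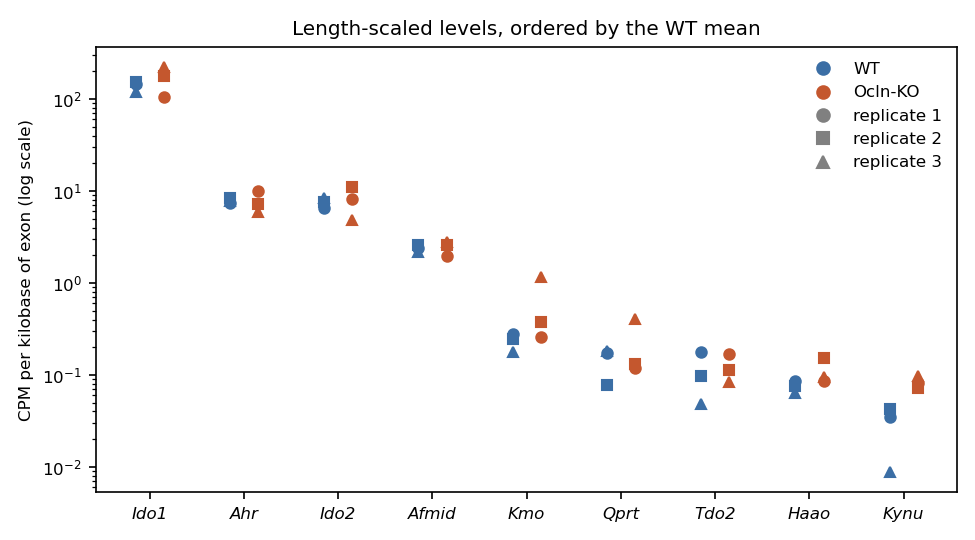
CPM per kilobase of exon (vertical axis, log scale) of the 9 transcripts, ordered by their WT mean, with 1 point per library. Ido1 lay above 100 CPM per kilobase in each library, Ahr and Ido2 overlapped, and Kmo, Qprt, Tdo2, Haao and Kynu were below 0.5 CPM per kilobase in the WT libraries.

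Levels of different genes were compared per kilobase of exon. On this scale the WT means of the dioxygenases were 139 ± 17.1 for Ido1, 7.54 ± 0.947 for Ido2 and 0.109 ± 0.0659 for Tdo2 (CPM per kilobase, SD, n = 3). Ido1 therefore stood far above both other enzymes that can start the pathway. The receptor gene Ahr had 7.86 ± 0.521, within the spread of Ido2, and the formamidase gene Afmid followed with 2.38 ± 0.196. A wide step separated Afmid from Kmo at 0.234 ± 0.0517. Below Kmo came Qprt with 0.144 ± 0.0580, Tdo2, Haao with 0.0747 ± 0.0112 and Kynu with 0.0288 ± 0.0178. The libraries of Kmo and Qprt overlapped, as did those of Qprt, Tdo2 and Haao, so their order is not resolved. In length-scaled terms Ido1 made up 88.2% ± 1.62 of the summed level of the 9 genes in WT and 88.7% ± 5.09 in Ocln-KO (SD, n = 3). The Ocln-KO libraries held 83.4%, 89.1% and 93.5%. The per-kilobase ratio of Ido1 to Ido2 was 21.8, 20.3 and 14.2 in WT and 12.8, 16.0 and 45.3 in Ocln-KO, so that Ocln-KO replicate 3 had by far the highest ratio and replicate 1 the lowest.

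**Figure D3:**
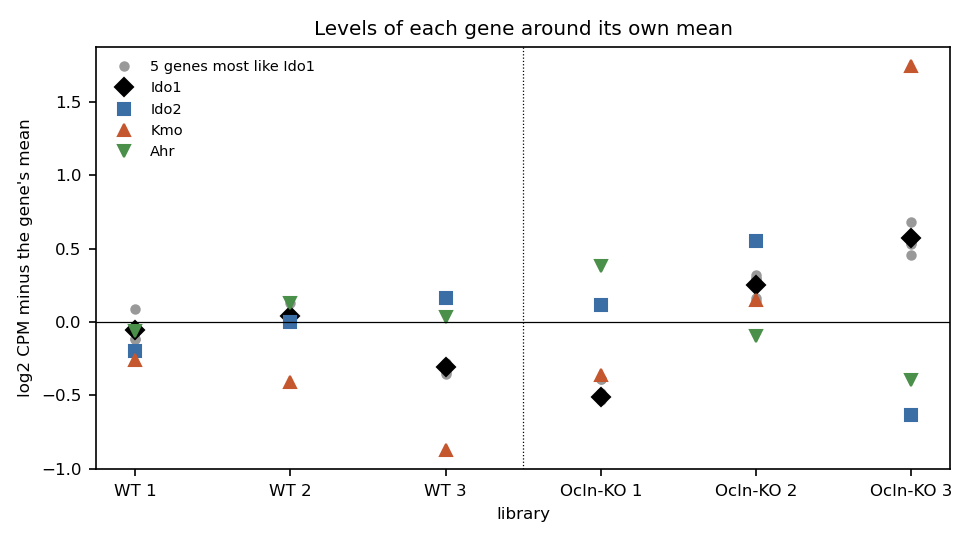
Log2 CPM of each gene minus its own mean over the 6 libraries (vertical axis) in each library (horizontal axis), for Ido1, Ido2, Kmo, Ahr and, in grey, the 5 genes whose profile was nearest to that of Ido1. The grey points stay close to Ido1, and Kmo and Ido2 part from it most in Ocln-KO replicate 3. Ahr has the opposite sign to Ido1 in each Ocln-KO library and in WT replicate 3.

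The genes whose profile over the 6 libraries was most like that of Ido1 were sought by the mean absolute difference of centred log2 CPM. Among 16357 other genes these were Fkbp10, Sytl4, Xkrx, Zfp13 and Il6ra, with mean differences between 0.0508 and 0.0555 on the log2 scale. Sytl4 shows the shared profile at a similar abundance, with 176, 203 and 150 CPM in WT, against 128, 232 and 254 CPM in Ocln-KO. Of the other genes of the pathway, Afmid was ranked 397, whereas Ahr, Kmo and Ido2 were ranked 11970, 12014 and 12571.

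Of the 7 tested caput transcripts, 5 had their lowest Ocln-KO value in replicate 1, as did 33% of all genes tested, while Lcn8 and Cst8, both below 2.5 CPM, were lowest in replicate 3. The following 3 were chosen after their values were seen. Lcn5, a caput lipocalin, had 5279, 5580 and 3926 CPM in WT, against 2479, 6218 and 6476 CPM in Ocln-KO, and was ranked 573 by likeness to Ido1. Ros1, a receptor kinase of the initial segment, had 288, 325 and 208 CPM in WT, against 276, 360 and 420 CPM in Ocln-KO, and was ranked 147. Gpx5 also had its lowest Ocln-KO value in replicate 1, but at 256 CPM this was above every WT library (54.5, 172 and 26.3 CPM). The other Ocln-KO libraries held 7264 and 10039 CPM of Gpx5, and it was ranked 16352. Their part in the spread of Ido1 was not tested.

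Kmo and Kynu were set beside markers of the immune cells that a whole epididymis can hold. The 9 macrophage markers summed to between 157 and 178 CPM in WT and between 183 and 298 CPM in Ocln-KO, and all 9 had a positive log2 fold change. With edgeR's quasi-likelihood test 0 of these 9 were called and 7 had an unadjusted p under 0.05, DESeq2 called 5 and limma-voom 0. Without Ocln-KO replicate 1 edgeR called 7 of the 9 higher, and without Ocln-KO replicate 3 it called 1. The 7 dendritic cell markers summed to between 17.3 and 20.6 CPM in WT and between 28.0 and 42.8 CPM in Ocln-KO. Of the 6 dendritic markers tested, edgeR called 0 with 5 under an unadjusted p of 0.05, DESeq2 called 3 and limma-voom 0, and edgeR called 2 without Ocln-KO replicate 1. Over all 19691 genes tested, 29.1% had an unadjusted p under 0.05 by edgeR, and DESeq2 called 1604 higher and 1708 lower. Without Ocln-KO replicate 1, edgeR called 782 higher and 875 lower among 20352 genes. T and NK cell markers summed to between 2.33 and 3.22 CPM in WT and between 4.89 and 8.55 CPM in Ocln-KO. The 5 of them tested all had a positive log2 fold change, with a median of 1.29, against 0.60 for the macrophage markers. EdgeR called 0 of these 5, and 4 had an unadjusted p under 0.05. B cell markers summed to between 0.557 and 0.695 CPM in WT and between 0.973 and 2.78 CPM in Ocln-KO. For neutrophil markers the sums were between 0.646 and 2.11 CPM in WT and between 1.93 and 4.85 CPM in Ocln-KO. The neutrophil genes S100a8, S100a9 and Ly6g were at or near 0 in each library.

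**Figure D4:**
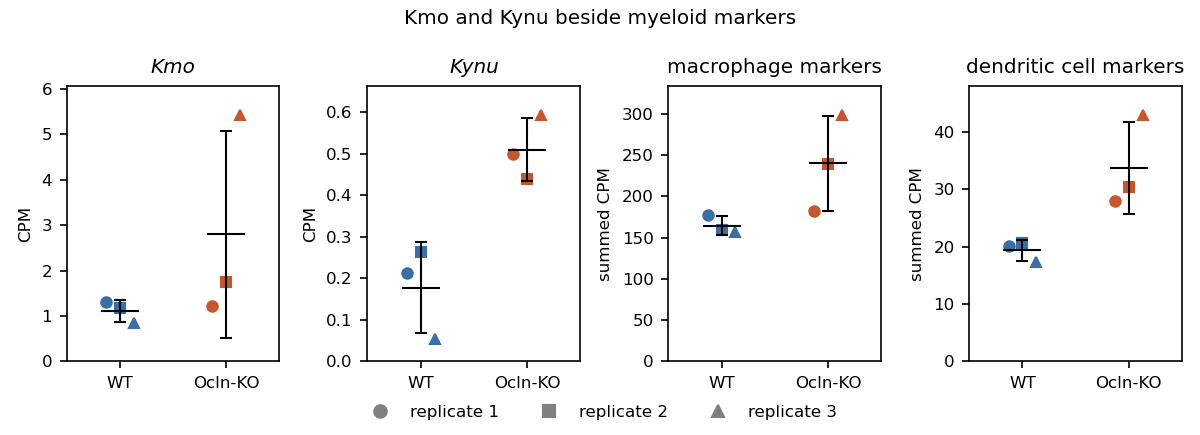
CPM of Kmo and of Kynu and the summed CPM of 9 macrophage and 7 dendritic cell markers (vertical axes, linear from 0), with points for libraries, the long line for the mean and the bar for 1 SD (n = 3). Ocln-KO replicate 3 was the highest library in all 4 panels, at 5.42, 0.592, 298 and 42.8 CPM.

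The library with the most Kmo, Ocln-KO replicate 3, was the one with the highest summed macrophage and dendritic markers. The sums of the T and NK cell, B cell and neutrophil markers were also highest there, at 8.55, 2.78 and 4.85 CPM. In Ocln-KO replicate 1, however, Kmo had 1.22 CPM and lay inside the WT range. There the macrophage sum of 183 CPM and the dendritic sum of 28.0 CPM were above every WT library. Of the Ocln-KO libraries, replicate 3 was highest for 8 of 9 macrophage and 6 of 6 tested dendritic markers, against 35.8% of all genes tested, and the exception, the Fc receptor gene Fcgr1, had 3.27, 7.25 and 3.20 CPM. In Ocln-KO replicate 3 the fractalkine receptor gene Cx3cr1 had 23.4 CPM, against 7.51 and 12.1 CPM in the other Ocln-KO libraries and 5.59 to 6.79 CPM in WT. Csf1r, the receptor for macrophage colony-stimulating factor, had 75.9 CPM there and between 32.6 and 47.1 CPM elsewhere. Both genes were picked from the marker list after their values were seen, and others, such as C1qa with 36.0 and 36.3 CPM, were nearly level between Ocln-KO replicates 2 and 3. The part of such cells in the values of Kmo, Kynu and Qprt was not tested. Ido1 followed the same order within Ocln-KO, with 191, 324 and 404 CPM where the macrophage markers summed to 183, 240 and 298 CPM, but in replicate 1 Ido1 was below every WT library and the macrophage sum above. The part of these cells in the values of Ido1 was not tested either.

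**Figure D5:**
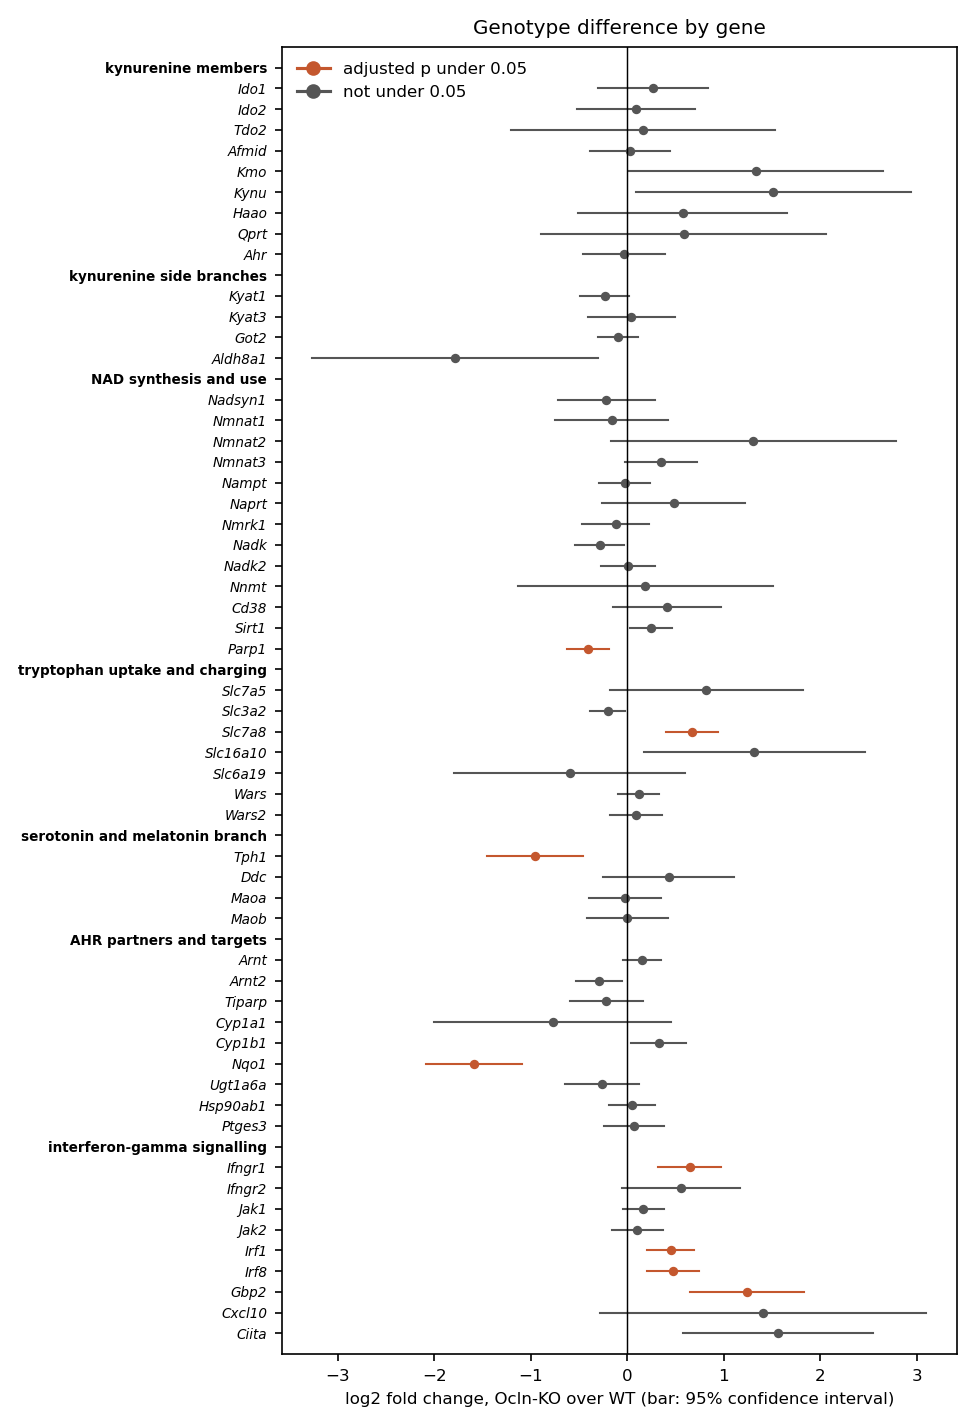
Log2 fold change of Ocln-KO over WT (horizontal axis) with its 95% confidence interval for the 9 genes and for tested genes of 6 related lists, coloured where the adjusted p of edgeR's quasi-likelihood test was under 0.05. The 9 kynurenine genes are all grey, Nqo1, Tph1 and Parp1 are coloured on the lower side, and Slc7a8, Ifngr1, Irf1, Irf8 and Gbp2 are coloured on the higher side.

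Around the 9 genes, 61 genes of 6 related lists were examined, of which 47 were tested. EdgeR's quasi-likelihood test called 8 of these, 5 higher and 3 lower. Of all genes tested it called 8.95%, 3.91% as higher and 5.04% as lower. Of the 8 genes that take up tryptophan or charge its tRNA, 7 were tested and 1 rose. This was Slc7a8, a light chain of the exchanger for large neutral amino acids, which had 20.3, 20.3 and 19.2 CPM in WT, against 28.1, 31.1 and 36.3 CPM in Ocln-KO (log2 fold change 0.67, SE 0.12, adjusted p = 0.0225). Slc7a5 and Slc16a10, singled out after their values were seen, are further carriers of aromatic amino acids. Like Ido1, both had Ocln-KO replicate 1 below the WT libraries and the other Ocln-KO libraries above them, although with larger differences, so that they were ranked only 14029 (Slc16a10) and 7330 (Slc7a5) by likeness to Ido1. Slc16a10 had 111, 126 and 95.3 CPM in WT, against 80.2, 339 and 411 CPM in Ocln-KO (log2 fold change 1.32, adjusted p = 0.127), and without Ocln-KO replicate 1 it was called higher at 1.76 with an adjusted p of 0.00479 in edgeR's test. Slc7a5 had 76.1, 77.3 and 67.0 CPM against 46.2, 144 and 200 CPM (log2 fold change 0.82, adjusted p = 0.250), and was called without Ocln-KO replicate 1 at 1.23 with an adjusted p of 0.0133.

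The branches that compete for kynurenine or use its products gave few calls, and 8.95% of all genes tested were called by edgeR. Of the 7 genes of the side branches, 4 were tested and 0 were called by edgeR, with 1 at an unadjusted p under 0.05, while DESeq2 called 1 and limma-voom 0. The kynurenine aminotransferase genes, which lead to kynurenic acid, had means of 33.7 CPM in WT, against 28.6 CPM in Ocln-KO for Kyat1 (log2 fold change -0.23, adjusted p = 0.206) and of 6.75 and 6.96 CPM for Kyat3 (0.04, adjusted p = 0.906, both by edgeR's quasi-likelihood test). Acmsd, whose enzyme diverts the pathway away from quinolinic acid, had 0 counts in each library. Among 13 tested genes of NAD synthesis and use, 1 fell, the poly-ADP-ribose polymerase gene Parp1, from 101 ± 7.23 to 76.0 ± 5.32 CPM (SD, n = 3, log2 fold change -0.41, adjusted p = 0.0404 by edgeR). It was not called when libraries were scaled by total counts alone. Nampt, the salvage enzyme that makes NAD from nicotinamide, had 122 and 120 CPM (adjusted p = 0.919 by edgeR). In the serotonin branch, which also consumes tryptophan, 4 of 8 genes were tested and 1 fell. Tph1, the tryptophan hydroxylase, had 6.60, 5.13 and 5.14 CPM in WT, against 2.93, 2.61 and 3.14 CPM in Ocln-KO. These libraries did not overlap, which held for 36.3% of all genes tested. The log2 fold change of Tph1 was -0.96 (SE 0.21, adjusted p = 0.0374 by edgeR). Ddc, the decarboxylase that follows it, had 1.69 and 2.28 CPM (adjusted p = 0.373).

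Beside the level of Ahr, 12 genes of its partners and targets were examined, 9 of them tested. Of these 9, 1 was called by edgeR, against 8.95% of all genes tested. This was Nqo1, a quinone reductase that responds to this receptor and to oxidative stress. It had 113, 108 and 116 CPM in WT, against 52.2, 30.9 and 29.2 CPM in Ocln-KO, far below every WT library (log2 fold change -1.59, SE 0.21, adjusted p = 0.0128 in edgeR's quasi-likelihood test). Cyp1a1, the best known target of the receptor, had means of 1.78 CPM in WT, against 1.04 CPM in Ocln-KO (log2 fold change -0.77, adjusted p = 0.379), Cyp1b1 had 206 and 258 CPM (0.33, adjusted p = 0.131), and Tiparp 114 and 97.8 CPM (-0.22, adjusted p = 0.423). The receptor's repressor gene Ahrr had at most 7 counts and was not tested. The 9 tested, partners and targets together, had 4 positive and 5 negative log2 fold changes, and 50.9% of all genes tested were positive. Their median was -0.22, against 0.01 over all genes.

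Of 12 genes of interferon-gamma signalling, 10 were tested. This signalling induces Ido1 in many cells, and its part in the values of Ido1 here was not tested. Of the 10, 4 rose and none fell, and all 10 had a positive log2 fold change with a median of 0.60. Over all genes tested, 8.95% were called, 3.91% as higher, 50.9% had a positive log2 fold change, and the median was 0.01. The receptor chain gene Ifngr1 had means of 91.8 and 144 CPM (log2 fold change 0.65, adjusted p = 0.0354), Irf1 30.9 and 42.3 CPM (0.45, adjusted p = 0.0401), Irf8 13.4 and 18.6 CPM (0.48, adjusted p = 0.0448) and the guanylate-binding protein gene Gbp2 6.76 and 16.0 CPM (1.24, adjusted p = 0.0316), all by edgeR's quasi-likelihood test. Irf8 is also a transcription factor of macrophages and dendritic cells, whose markers had higher sums in the Ocln-KO libraries, and the part of these cells was not tested. Ifng itself had 1 count in all 6 libraries together. Of the 10 tested, 3 (Irf8, Ifngr2 and Ciita, picked out after their values were seen) ascended from Ocln-KO replicate 1 over 2 to 3 as Ido1 did, and 7 did not, and 20.6% of all genes tested had this order. The calls around the pathway depended on which library was left out. Of the 8, 0 were left without WT replicate 1 or without WT replicate 3, 1 without WT replicate 2 (Nqo1) and 2 without Ocln-KO replicate 2 (Ifngr1 and Nqo1), while 10 genes of the 6 lists were called without Ocln-KO replicate 1, and 8 when it was replicate 3 that was left out. Over all genes, 4 higher and 19 lower calls were left without WT replicate 1, 85 and 145 without WT replicate 2, 16 and 40 without WT replicate 3 and 220 and 342 without Ocln-KO replicate 2, but 782 and 875 without Ocln-KO replicate 1, and leaving out Ocln-KO replicate 3 left 748 and 944. Ifngr1, Irf1 and Tph1 were not called without Ocln-KO replicate 1, nor Irf8 and Parp1 without Ocln-KO replicate 3. The highest adjusted p over the 14 alternatives ran from 0.0770 for Nqo1 to 0.148 for Irf1. Each of the 8 had the same direction in all 14 alternatives.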

How the data were processed

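RNA of 3 WT and 3 Ocln-KO whole epididymides was depleted of rRNA and sequenced as paired ends from directional libraries. The authors cleaned the reads, aligned them to GRCm38 with HISAT2 (version 2.0.4 per the labels) and deposited raw HTSeq counts per gene. The counting mode, strand setting and treatment of reads with several alignments are not given in the sources used here. Authors' comparisons, RPKM values and proteomes are not used here.

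Columns were matched to samples by name, with 0 unmatched. In R 4.3.3, genes were filtered with filterByExpr in edgeR 4.0.16, scaled by TMM factors and compared with glmQLFit and glmQLFTest with no covariate, with Benjamini-Hochberg adjustment over 19691 genes and calls at an adjusted p under 0.05. CPM use TMM-scaled library sizes. Standard errors came from the F statistic of each log2 fold change, and intervals cover 95%. No permutation test was run, since 0.1 is the smallest exact p with 3 libraries against 3. The fits were tested on simulated counts. Alternatives were DESeq2 1.42.0, limma-voom (limma 3.58.1), RLE factors, total counts, TMM without the 20 most abundant genes, a minimum of 10 counts in every library, no minimum, the replicate number as a block and each library left out.

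Likeness to Ido1 used log2 CPM with a prior count of 2 among genes with a mean of at least 1 CPM. Coordinates, exon blocks and lengths come from GENCODE M21 on GRCm38, in which all 133 listed symbols matched. The 9 genes, the related lists and the markers were chosen with earlier results of these data known. The text names all 9, of each related list the called genes (up to 4 by size of change) with Irf1, Ifng, Cyp1a1, Cyp1b1, Ahrr, Tiparp, Nampt, Kyat1, Kyat3, Acmsd, Tph1 and Ddc, and the 5 genes nearest to Ido1, apart from 1 gene of the rule that is not reported here.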

Additional observations from a re-analysis of the deposited data

How the results depend on the processing

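In all 14 alternatives 0 of the 9 kynurenine genes were called. Of the 123 log2 fold changes of these genes recomputed under an alternative, 112 kept their sign and 11 turned. Total counts alone put Ahr at 0.054 and moved the median of all genes from 0.01 to 0.09. The other turns came from leaving out 1 library. Over these fits Ido2 ran from -0.21 (without Ocln-KO replicate 2) to 0.36, Tdo2 from -0.19 (without WT replicate 3) to 0.73, Afmid from -0.071 (without Ocln-KO replicate 3) to 0.17, Qprt from -0.22 (without Ocln-KO replicate 3) to 0.88 and Ahr from -0.26 to 0.13 (without Ocln-KO replicate 3). The filter of at least 10 counts in every library dropped Tdo2, Kynu and Qprt. Of the related lists, 8 genes were called, and between 0 and 10 when 1 library was left out. Of the markers, 6 were called, against 16 with DESeq2, 10 with total counts, 13 with no count filter and between 0 and 19 when 1 library was left out. With the replicate block, 0 genes of the related lists, 0 markers and, over all genes, 10 higher and 31 lower were called, against 770 and 992 without it. Over all genes, libraries with the same number did not deviate together (correlations -0.05, -0.03 and -0.003). A pairing of mice need not leave such a correlation, so these values cannot decide whether the samples were paired. DESeq2 called 1604 genes higher and 1708 lower. The length of the longest transcript in place of all exons left the share of Ido1 and the order of the WT means as they were within the replicate SD. For Tdo2, Kynu, Haao and Qprt, with at most 36 counts in a library, depth limits what can be seen.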

Other observations

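A few transcripts of related lists, singled out after their values were seen, had low Ocln-KO values without being called by edgeR. Aldh8a1, whose enzyme acts downstream of Acmsd, had 4.41, 2.37 and 5.01 CPM in WT, against 1.03, 2.13 and 0.266 CPM in Ocln-KO. Each Ocln-KO library lay below each WT library, and 36.3% of all genes tested had no overlap. The log2 fold change of Aldh8a1 was -1.78 with an adjusted p of 0.115 in edgeR's quasi-likelihood test, while DESeq2 called it. Aadat, an aminotransferase that can make kynurenic acid, had 7, 8 and 17 counts in WT, against 4, 1 and 0 counts in Ocln-KO, and did not pass the filter on low counts. Tph2, the neuronal tryptophan hydroxylase, had 24, 18 and 10 counts in WT, against 0, 7 and 2 counts in Ocln-KO and did not pass it either. In the other direction, Ciita, the activator of MHC class II genes, had 4.44, 4.45 and 3.29 CPM in WT, against 7.36, 7.44 and 21.2 CPM in Ocln-KO (log2 fold change 1.56, adjusted p = 0.0598 in edgeR's quasi-likelihood test), with its highest value in the library that also had the most Kmo. Ciita was called in 5 of the 14 alternatives, namely DESeq2, total counts, no count filter, and without Ocln-KO replicate 1 or 3.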
